A study of Mus musculus with 20 samples.

Results

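The libraries described here are the 10 labelled as control, of 20 in the series, and no other library entered any filter, scaling or test. Each was made from the soleus muscle of C57BL/6J mice that received sham irradiation, and the series states groups of 10 mice, with the whole soleus taken from 1 hind limb. The other group, which was unloaded, irradiated and stressed, was not used here. The sources used here do not state age or sex, and the labels name no batch. The question was what RNA an unexposed soleus contains, and which genes rank the 10 muscles in the same order as Myh4, the heavy chain gene of the fastest limb fibres.

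A muscle fibre contracts through thick filaments of myosin, and the heavy chain it makes sets much of its speed. In adult mouse limb muscle Myh7 marks slow type 1 fibres, Myh2 the fast oxidative type 2A, Myh1 the type 2X and Myh4 the type 2B. The soleus is a postural muscle known for its slow and fast oxidative fibres, and type 2B fibres are rare in it. Whole muscle also contains blood vessels, nerve, connective tissue and some fat. In RNA from whole muscle, fewer fibres of a type and less RNA per fibre cannot be told apart.

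Deposited counts per library totalled 17336017 to 43424464 reads, with a median of 32980307. No pair of libraries held identical values, and Spearman correlations between libraries were 0.988 to 0.993. After a filter on low counts 14893 genes remained. CPM below is the count per 1e6 counts of a library, scaled by TMM factors that ranged from 0.961 to 1.07. Several libraries stood apart in ways that touch the results. Replicate 5 was lowest in most fast fibre genes, replicate 9 in mitochondrially encoded RNA, replicate 10 was highest in myelin genes, and replicate 6 in tendon and fibroblast genes.

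Ttn, which encodes the giant spring protein titin, alone held 18.6% ± 0.785 of all counts (SD, n = 10), from 17.6% to 19.6%. It was followed by mt-Co1, the mitochondrially encoded subunit 1 of cytochrome oxidase, at 3.53% ± 0.247 and by Neb, the thin filament ruler nebulin, at 2.14% ± 0.0528. The skeletal actin gene Acta1 held 1.501% ± 0.0823. Myh7 and Myh2 held 0.988% ± 0.0932 and 0.973% ± 0.0701. Malat1, an abundant nuclear long noncoding RNA, and Atp2a1, the calcium pump of fast fibres, held 0.822% ± 0.0737 and 0.821% ± 0.0562. The 10 rows with most counts took 31.1% to 33.6% of a library, and 56 to 79 genes sufficed for 50% of its counts. One of these rows had no gene name in the annotation used and held 1.93% ± 0.207.

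By class, nuclear protein-coding genes held 86.8% ± 1.18 of counts, mitochondrially encoded genes 8.50% ± 1.04 and long noncoding genes 2.03% ± 0.116. The RNA had been depleted of ribosomal RNA, and mitochondrial rRNA held 2.02% of the counts that remained. The mitochondrial share was 5.88% in replicate 9 and 8.00% to 9.57% in the other libraries. A list of 25 sarcomere frame genes held 26.3% ± 1.02, most of it Ttn. The 13 slow contractile genes held 2.58% ± 0.174. The 15 fast ones held 1.39% ± 0.209, from 0.936% in replicate 5 to 1.71%. The 30 genes of glycolysis and glycogen held 1.44% ± 0.0741 and the 64 nuclear genes of oxidative phosphorylation 1.504% ± 0.0462.

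**Figure D1:**
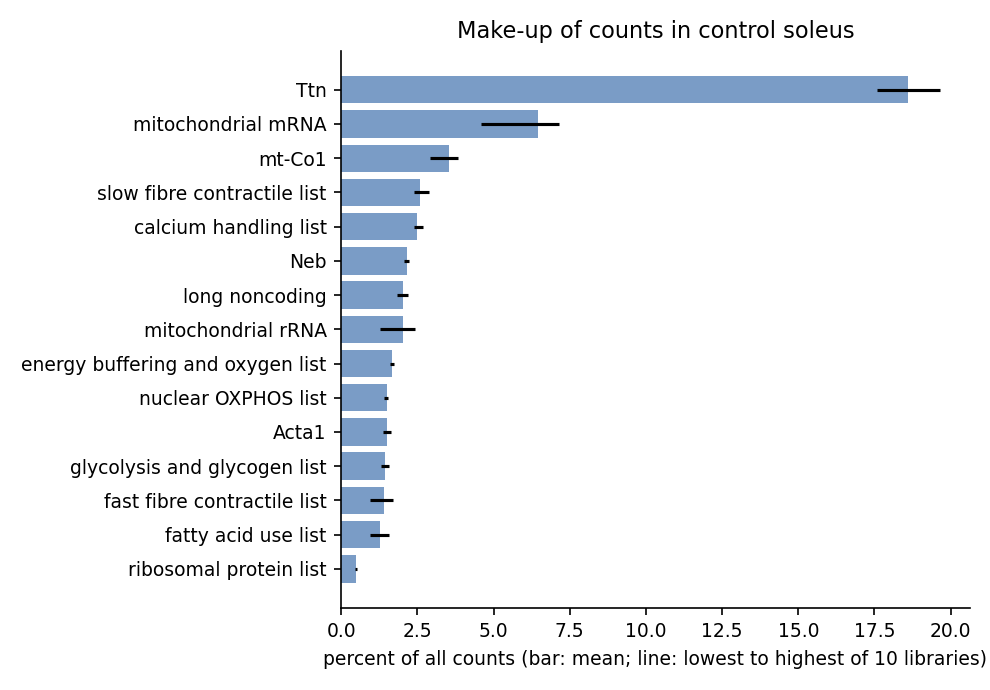
Share of all counts (percent, horizontal axis) of single genes, RNA classes and gene lists in 10 control soleus libraries. Bars are means and black lines run from the lowest to the highest library. Entries overlap, since mt-Co1 is one of the mitochondrial mRNAs. Ttn stands far above the rest at 18.6%, and the mitochondrial classes show the long lower tail that comes from replicate 9.

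Long genes collect more reads, so levels between genes are compared per kilobase of exon. Rows under 200 bases or without a length in the annotation, among them the unnamed row above, were not ranked. Among the rest mt-Co1 was highest, at 22905 ± 1851 CPM per kb (SD, n = 10), followed by Acta1 at 9800.2 ± 703. The mitochondrial RNAs mt-Rnr2 at 8190 ± 1567, mt-Rnr1 at 7687 ± 1108, mt-Nd1 at 7277 ± 1334 and mt-Cytb at 6605 ± 752 CPM per kb came next, and their spreads overlap. For the rRNAs mt-Rnr2 and mt-Rnr1 these are levels after ribosomal RNA depletion. How far depletion lowered them was not tested. Mb, the oxygen store myoglobin, stood at 2687 CPM per kb, Tpm2, a tropomyosin, at 2524 ± 147 and Atp2a1 at 2366 ± 149.9. Ttn, first by counts, was 16th per kilobase when rows under 200 bases were ranked as well, at 1595 ± 96.7. Both calcium pumps were abundant: Atp2a2, the pump of slow fibres and heart, stood at 1059 ± 111 CPM per kb. Among slow troponin and light chain genes, Tnnc1 stood at 1371, Myl3 at 1322, Myl2 at 1221, Tnnt1 at 459 and Tnni1 at 239 CPM per kb. Among their fast counterparts Tnnt3 stood at 1374, Mylpf at 1063, Tnni2 at 685, Myl1 at 661 and Tnnc2 at 527 CPM per kb.

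The 4 heavy chain genes were ordered Myh2, Myh7, Myh1 and Myh4 by level per kilobase. Of their summed level per kb, Myh2 made up 43.1% ± 3.59, Myh7 36.2% ± 4.05, Myh1 17.4% ± 3.99 and Myh4 3.24% ± 2.43. The ranges of Myh2 (37.2% to 47.5%) and Myh7 (31.1% to 45.3%) overlapped, although Myh2 was above Myh7 in all 10 libraries. That order rests on the exon lengths used, 7.14 kb for Myh2 and 8.62 kb for Myh7: by counts alone Myh7 was the higher in 4 of 10 libraries. Myh1 was below both in every library, and Myh4 was below Myh1 in every library.

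Myh7 ran from 7950 CPM in replicate 6 through a median of 9633 to 11623 in replicate 5. Myh2 ran from 8454 CPM in replicate 6 through 9725 to 11103 in replicate 1. Both therefore varied by less than 1.5-fold between muscles. Myh1 ran from 1585 CPM in replicate 5 through 3725 to 4277 in replicate 6, and the other 9 libraries lay at 2843 or above.

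Myh4 spanned a far wider range. In replicates 1 to 10 it stood at 935, 449.8, 307, 582, 19.0, 1105, 1078, 177, 1449.7 and 202 CPM. Replicate 9 was thus 76.5-fold above replicate 5, and replicates 8, 10 and 3 also lay far below the upper 4. The highest count behind these values was 37831. Some sequence is shared among the heavy chains: 13.3% of 50-base windows of the Myh4 transcripts also occur in transcripts of the other 3 genes, 10.6% in those of Myh1, 10.1% in those of Myh2 and 0.117% in those of Myh7. The sources used here do not state how reads matching several genes were counted, and the part of such reads in these levels was not tested.

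**Figure D2:**
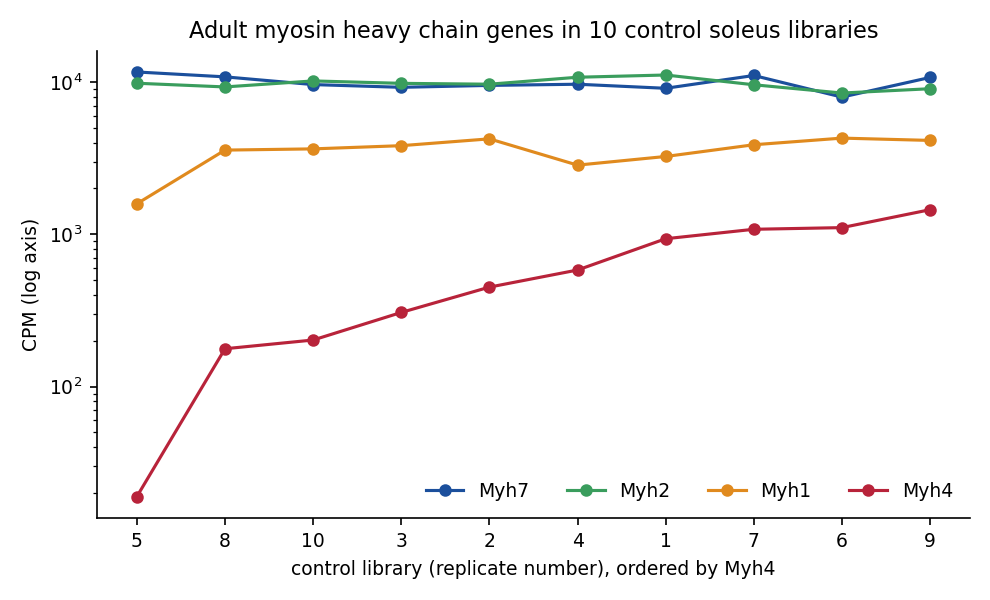
CPM of the 4 adult heavy chain genes (vertical log axis) in the 10 control libraries, ordered along the horizontal axis by Myh4. Each point is 1 library, and lines join the points of a gene. Myh7 and Myh2 vary by less than 1.5-fold, Myh1 drops in replicate 5 to 1585 CPM, and Myh4 climbs from 19.0 to 1449.7 CPM.

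Myh2 (ENSMUSG00000033196.18), Myh1 (ENSMUSG00000056328.15) and Myh4 (ENSMUSG00000057003.13) lie next to each other on chromosome 11, and Myh7 (ENSMUSG00000053093.17) lies on chromosome 14. Their promoters are shown because the 3 fast genes are neighbours on the chromosome and differ in how far they spread between these muscles. The RefSeq windows below, on build GRCm38.p6, run from 130 bases before to 20 bases after the annotated start, 5′ to 3′ on the gene's strand. They are chr11:67237682-67237831 (plus strand) for Myh4, chr11:67199972-67200121 (plus strand) for Myh1, chr11:67170897-67171046 (plus strand) for Myh2 and chr14:54994530-54994679 (minus strand) for Myh7, the one of 2 annotated starts with the lower coordinates. Capitals mark TATAAA, the core of a TATA box, and CANNTG, the E-box bound by the myogenic MyoD family, searched on both strands.
Myh4: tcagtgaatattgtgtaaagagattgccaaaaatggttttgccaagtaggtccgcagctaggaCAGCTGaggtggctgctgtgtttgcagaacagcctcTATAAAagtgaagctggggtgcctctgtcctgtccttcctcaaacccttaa
Myh1: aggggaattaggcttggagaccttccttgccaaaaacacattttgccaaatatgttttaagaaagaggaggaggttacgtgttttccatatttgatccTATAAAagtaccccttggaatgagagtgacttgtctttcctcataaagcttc
Myh2: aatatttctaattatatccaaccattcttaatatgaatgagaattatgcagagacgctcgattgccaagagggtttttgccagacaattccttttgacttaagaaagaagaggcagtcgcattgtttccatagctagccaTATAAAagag
Myh7: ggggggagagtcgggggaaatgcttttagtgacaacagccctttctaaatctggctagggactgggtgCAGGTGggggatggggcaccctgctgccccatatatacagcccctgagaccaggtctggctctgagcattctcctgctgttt

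TATAAA was found once in each of the 3 fast genes and not in the Myh7 window. It begins 31 bases before the annotated start in Myh4 and 32 before it in Myh1, but at base 11 after it in Myh2. CANNTG was found once in Myh4, as CAGCTG, and once in Myh7, as CAGGTG, and in neither Myh1 nor Myh2. Of 32851 RefSeq promoter windows of the same length, 7.36% hold TATAAA and 47.7% hold CANNTG. These are matches of letters, and no binding was measured.

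Across the 10 libraries no pair of heavy chains passed the test (6 pairs, Spearman's rho with its exact null, Benjamini-Hochberg adjusted over the 6). Myh4 and Myh1 had rho 0.60 (adjusted p = 0.220) and Pearson's r 0.79 (100000 permutations, adjusted p = 0.177). Without replicates 5 and 8, the libraries farthest from the Myh4 median, rho was 0.43 and r was 0.17, so the linear relation rests on them. Myh1 and Myh2 had rho -0.73 (adjusted p = 0.121) and r -0.37 (adjusted p = 0.442), and without the 2 libraries farthest in Myh1 r was -0.80. Myh4 and Myh2 had rho -0.38 (adjusted p = 0.396) and r -0.13 (adjusted p = 0.853). Myh4 and Myh7 had rho -0.35 (adjusted p = 0.396) and r -0.48 (adjusted p = 0.335), which turned to 0.14 without replicates 5 and 8.

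Over all genes, none of 14892 passed an adjusted p under 0.05 for rank correlation with log2 CPM of Myh4 (percent called 0.0). The smallest adjusted p was 0.312. At an unadjusted p under 0.05, which needs an absolute rho of 0.65, 421 genes (2.83%) had a rho above 0 and 420 (2.82%) a rho below 0, 5.65% together. Pearson's r with permutations also gave 0 genes after adjustment and 1142 (7.67%) before it. An edgeR quasi-likelihood fit with Myh4 as covariate gave 0 and 1169 (7.85%), and a DESeq2 fit, described further on, gave 27 after adjustment and 1176 (7.9%) before it. With scaling by library size alone the unadjusted counts became 594 above and 162 below 0, and the median rho over all genes moved from 0.0061 to 0.12. Total counts themselves ran against Myh4 (rho -0.65, exact p = 0.0490, adjusted p = 0.645 over 16 library measures; r -0.37, permutation p = 0.285). Their part in the correlations below was not tested. The genes that follow are thus a ranking by likeness, none of them a call.

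Highest in rank likeness was Zbtb24, a zinc finger protein, with rho 0.98 (exact p = 2.1e-05, adjusted p = 0.312) and r 0.67 (permutation p = 0.0362). It was low in every library, from 5.22 CPM in replicate 8 through 6.27 to 8.06 in replicate 9. The difference between its extremes was 1.54-fold, and r was 0.82 without replicates 5 and 8.

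Actn3 came next and moved far more. It encodes alpha-actinin 3, which ties thin filaments into the Z-discs of fast fibres. In replicates 1 to 10 it stood at 220.0, 150.3, 198, 153, 26.4, 279.9, 214, 143, 325 and 135 CPM. Replicate 5 was lowest and replicate 9 highest, as for Myh4, and replicates 8 and 10 were the next lowest. Actn3 had rho 0.94 (exact p = 0.000206, adjusted p = 0.612) and r 0.95 (permutation p = 0.00024). The fitted slope of its log2 level was 0.51 ± 0.060 (SE) per log2 unit of Myh4. Without replicates 5 and 8 r was 0.82.

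Next was Nfkb1, the p105 precursor and p50 subunit of NF-kappa-B, with rho 0.93, although it spanned only 31.5 to 35.04 CPM. The other genes of the top 10 by this rule had rho 0.85 to 0.90: Lhfp, Zfp780b, Zfp469, Map1s, Dbnl, Epc2 and Sfswap. They include zinc finger, cytoskeletal and RNA-processing proteins, and Actn3 was the one contractile gene among the 10.

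At the other end of the ranking stood Grpel2, Mdh1, Eef1g, Uqcrc2 and Mut. Mdh1, the cytosolic malate dehydrogenase of the malate-aspartate shuttle, had rho -0.94 (exact p = 0.000206, adjusted p = 0.612) and r -0.87 (permutation p = 0.00088). It ran from 582 CPM in replicate 9 through 659 to 707 in replicate 5, a 1.21-fold span, and its 4 lowest libraries were the 4 highest in Myh4. Grpel2, a mitochondrial co-chaperone, had rho -0.95. Uqcrc2, a core subunit of respiratory complex III, had rho -0.92 and ran from 352 to 400.0 CPM. Etfa, which carries electrons from fatty acid oxidation, had rho -0.89 and ran from 176 to 226 CPM. Mut, methylmalonyl-CoA mutase, and Acat1, a mitochondrial thiolase, had rho -0.92 and -0.88. Eef1g, a translation elongation factor subunit, and Gtf3c4, Cdc42ep3 and Ppm1b completed the lowest 10. All of these spans are small beside the 76.5-fold span of Myh4.

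**Figure D3:**
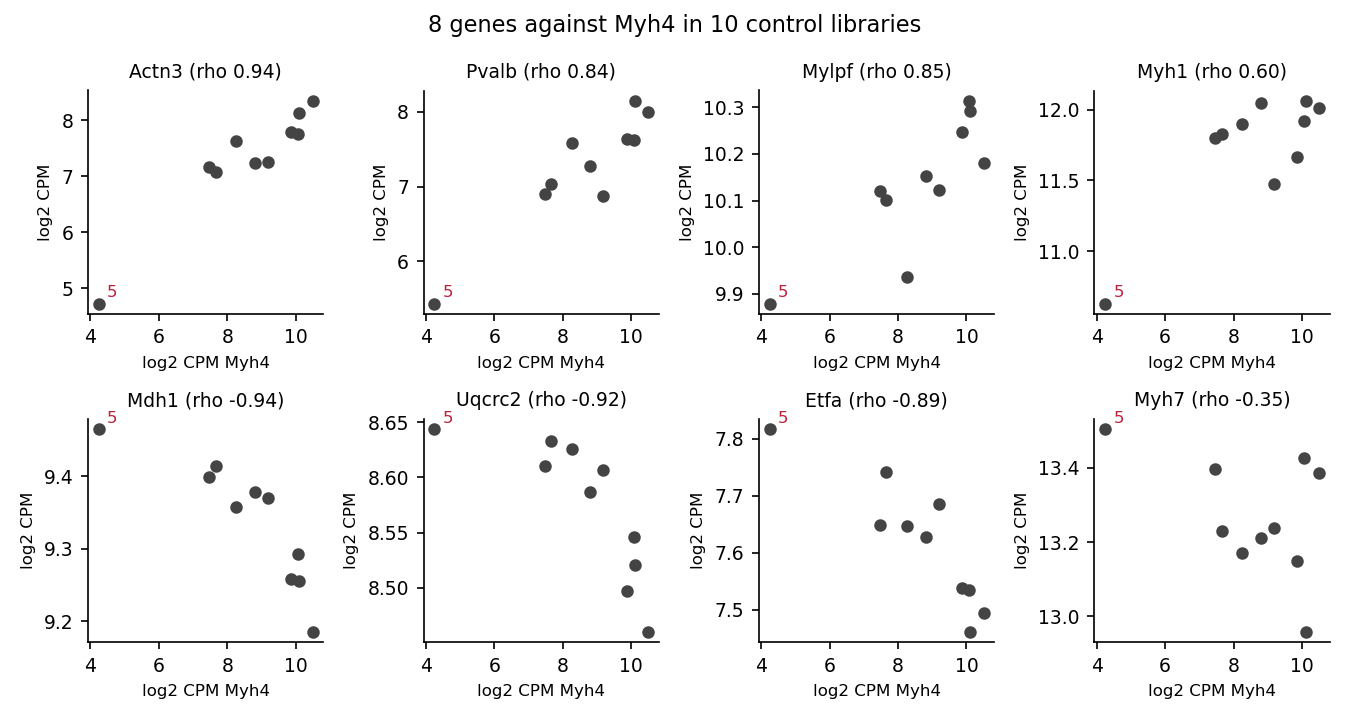
Log2 CPM of 8 genes (vertical axes) against log2 CPM of Myh4 (horizontal axes), 1 point per control library, with replicate 5 numbered. The upper row holds Actn3, Pvalb, Mylpf and Myh1, and the lower row Mdh1, Uqcrc2, Etfa and Myh7. Replicate 5 sits at 1 end in every panel, and the axes of the lower row span less than 1 log2 unit.

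Genes of the fast contractile apparatus leaned together toward Myh4. Of the 14 other members, 14 had a rho above 0, against 50.5% of all genes, and 7 had an unadjusted p under 0.05, against 2.83% of all genes in that direction. The median rho was 0.65, against 0.0061 over all genes, and it was 0.58 without replicate 5. Pvalb, the calcium buffer parvalbumin of fast fibres, ran from 43.1 CPM in replicate 5 through 174 to 284 in replicate 6. It had rho 0.84 and r 0.92, with a slope of 0.38 ± 0.056 per log2 unit of Myh4. Mylpf, the fast regulatory light chain, ran from 942 through 1127 to 1273 CPM, with rho 0.85 and a slope of 0.062 ± 0.015. The slopes thus differ widely within the list: Actn3 and Pvalb follow much of the Myh4 span, and Mylpf very little. Tnnc2, fast troponin C, had rho 0.12, the lowest of the list. Of the 15 members, Myh4 included, 14 had their lowest value in replicate 5, which was lowest for 11.8% of all genes.

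The list of fast fibre regulators had 9 of 14 members above 0, against 50.5% of all genes, and a median rho of 0.13. Maf, a transcription factor of the large Maf family, was highest with rho 0.75, and Eya4 and Sox6 had rho 0.64 each. Among slow fibre regulators 14 of 21 were below 0, against 49.5% of all genes, with a median of -0.15. The lowest was Nfatc3, a calcineurin-dependent transcription factor, with rho -0.83 over 45.7 to 54.8 CPM.

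Glycolysis and glycogen genes were mixed, with 19 of 30 above 0, against 50.5% of all genes. Their median rho was 0.22, and 0.42 with library size alone. Of them 7 had an unadjusted p under 0.05 and a rho above 0, against 2.83% of all genes. These included Gpd1 (rho 0.77), Tpi1 (0.76), Phkg1 (0.76) and Aldoa (0.73). Aldoa, the muscle aldolase, ran from 2304 CPM in replicate 5 through 2753 to 2950.2 in replicate 1. Ldhb, the lactate dehydrogenase subunit typical of oxidative muscle, had rho -0.67. Without replicate 5 the median of this list was 0.017. The list of energy buffering and oxygen genes had 5 of 8 members above 0, against 50.5% of all genes, with a median rho of 0.036. Its members with the largest absolute rho lay on both sides. Ckm, the cytosolic creatine kinase of muscle, had rho 0.78, while Ckmt2, its mitochondrial relative, had -0.70 and Mb had -0.59.

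Genes of oxidative metabolism leaned the other way. In the tricarboxylic acid cycle list 18 of 19 had a rho below 0, against 49.5% of all genes, with a median of -0.66, and 10 had an unadjusted p under 0.05, against 2.82% of all genes in that direction. Beside Mdh1 they included Pdhx, of the pyruvate dehydrogenase complex (-0.88), and Suclg2, of succinyl-CoA ligase (-0.83). The list thus reaches beyond the cycle itself, since Mdh1 and Pdhx are not enzymes of it. Of 64 nuclear oxidative phosphorylation genes 60 were below 0, with a median of -0.52 and 17 at an unadjusted p under 0.05. Of 30 fatty acid genes 27 were below 0, with a median of -0.50 and 11 at that p, among them Hadh, the hydroxyacyl-CoA dehydrogenase of the mitochondrial matrix (-0.88). With scaling by library size alone the medians were -0.36 for the first of these lists and -0.21 for the second, and -0.50 for the third. Without replicate 5 the 3 medians were -0.60, -0.47 and -0.31.

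These shifts were small in size. The median oxidative phosphorylation gene lay between -0.051 log2 units from its mean in replicate 9 and 0.071 in replicate 5, and its slope was -0.018 per log2 unit of Myh4. Fatty acid genes spread more, from -0.20 in replicate 6 to 0.24 in replicate 5. Of the 30, 20 were highest in replicate 5, which was highest for 12.5% of all genes. The 11 mitochondrially encoded mRNAs that passed the filter all had a rho below 0, against 49.5% of all genes, with a median of -0.26. All 11 were lowest in replicate 9, the library highest in Myh4 and lowest for 11.6% of all genes. Without replicate 9 their median was 0.042. Without replicate 5 it was -0.53, and without replicates 5 and 8 it was -0.79.

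Slow contractile genes mostly had a rho below 0 with Myh4. Of 13 members 11 were below 0, against 49.5% of all genes, with a median rho of -0.30. None had an unadjusted p under 0.05. Without replicates 5 and 8 the median was 0.19. With Myh7 itself left out, the median rho of the other 12 with Myh7 was 0.81. The rho of Myl2, the slow regulatory light chain, with Myh7 was 0.99, that of Tnnc1, slow troponin C, 0.98, and that of Myh7b 0.13. Myl2 ran from 2090.0 CPM in replicate 6 through 2304 to 2897 in replicate 5. Of the calcium pumps, Atp2a1 had rho 0.71 with Myh4 (7362 CPM in replicate 5 to 9008 in replicate 9). Atp2a2 had rho -0.48 with Myh4 and 0.88 with Myh7. The 18 calcium handling genes as a list had a median of 0.16, which was 0.29 with library size alone and -0.083 without replicate 9. The sarcomere frame, shared by all fibre types, had 13 of 25 members above 0, against 50.5% of all genes. Its median was 0.067, and -0.13 without replicate 9.

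**Figure D4:**
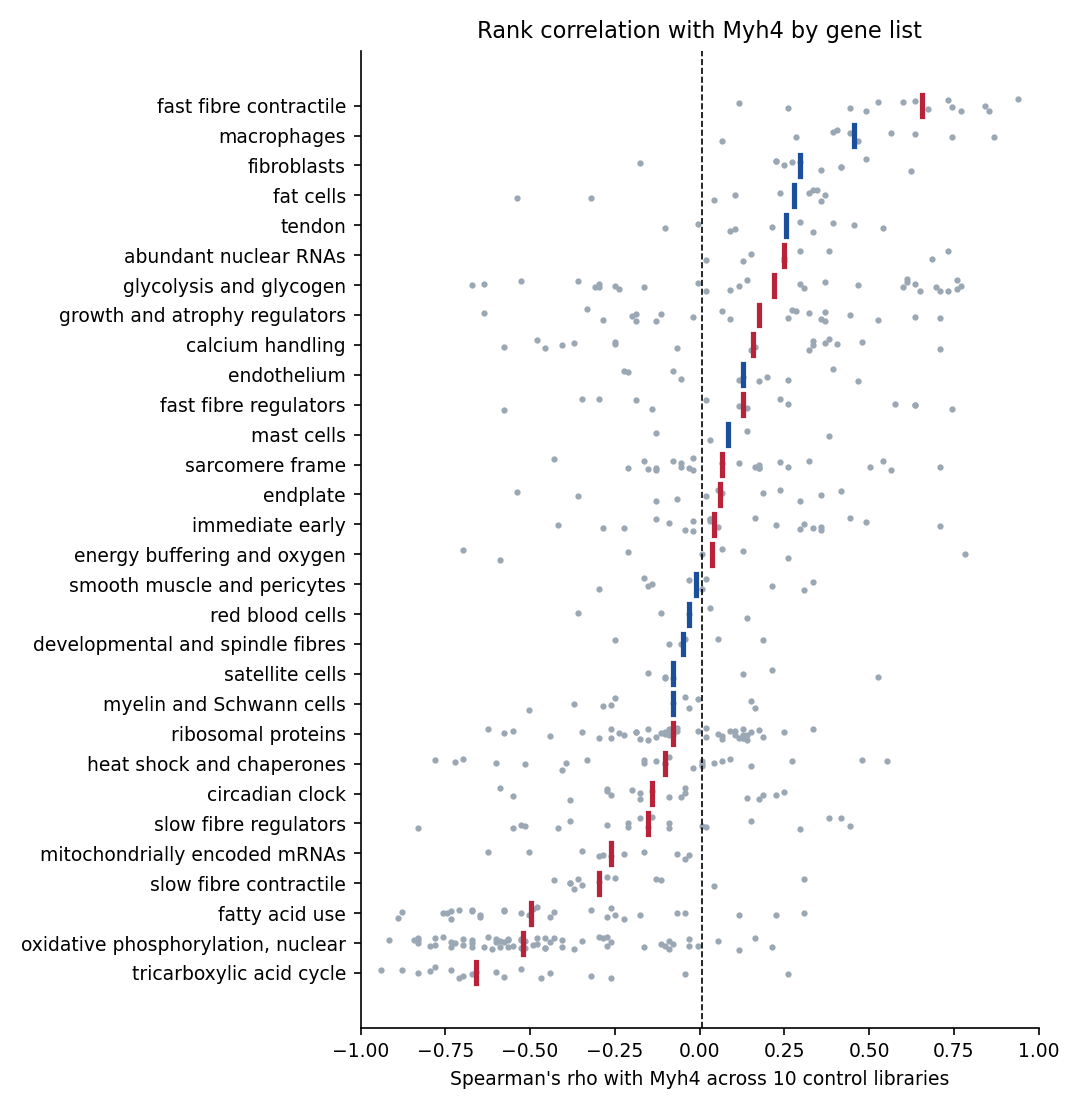
Spearman's rho with Myh4 (horizontal axis) for the tested members of each gene list (grey points), with the list median as a vertical bar, red for pathway lists and blue for lists of other cell types. The dashed line is the median over all 14892 genes, 0.0061. The fast contractile list lies farthest right, and the 3 lists of oxidative metabolism farthest left.

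Among the alternatives run on all 10 libraries, the DESeq2 Wald fit with Myh4 as covariate was the one that made calls. It called 27 genes among the 1899 to which it gave an adjusted p, 13 higher with Myh4 (0.685%) and 14 lower (0.737%). Its independent filtering gives an adjusted p only to genes above a cut-off on mean count, chosen to yield the most calls. The 2 percentages are thus shares of a subset with high counts, not of all 14892 genes. Among the 13 were 9 fast contractile genes, Actn3, Mybpc2, Myh1, Mylk4, Mylpf, Myoz1, Pvalb, Tnni2 and Tpm1, with Aldoa, Eno3 and Ckm. Among the 14 were Etfa, Etfdh and Hadh of fatty acid oxidation, Ndufb5 and Uqcrfs1 of the respiratory chain, and Mdh1. In edgeR the same 27 genes had adjusted p-values of 0.221 to 0.575, and by rank correlation 0.612 to 0.900. Without replicate 5 DESeq2 called 2 genes, 1 of them among the 27. With each of the other libraries left out in turn it called 17 to 91, of which 7 to 22 were among the 27. The number of genes given an adjusted p also moved, from 1325 without replicate 2 to 14994 without replicate 5, because the filter sets its cut-off anew in each fit. These refits were added after the data were seen.

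Lists of other cell types were read for the same libraries. Of all genes, 50.5% had a rho above 0. All 10 tested macrophage genes had a rho above 0 with Myh4, with a median of 0.45 that was 0.74 without replicate 9. Cd68, a lysosomal protein of macrophages, was highest (rho 0.87, 1.85 to 7.37 CPM). The summed level of this list was 55.1 to 110.3 CPM. As a library measure, its median level had rho 0.59 with Myh4 (adjusted p = 0.645 over 16 measures) and r 0.50 (adjusted p = 0.698). Fibroblast genes had 10 of 11 above 0, with a median of 0.30 that ran from 0.15 to 0.57 with 1 library left out. Fat cell genes had 8 of 10 above 0, with a median of 0.28 that ran from 0.067 to 0.44. Myelin genes had 2 of 11 above 0 (median -0.079). None of the 16 library measures passed, the mitochondrial share included (rho -0.26, adjusted p = 0.835). The 8 lymphocyte markers summed to 0.057 to 0.667 CPM and none passed the filter. The part of other cell types in the Myh4 correlations was not tested.

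The spread between control muscles was low for most genes. The common biological coefficient of variation, the between-library SD as a share of the level with counting noise removed, was 0.117. Among 7242 genes with a settled symbol, not a provisional one such as a Gm number, averaging 10 CPM or more, the median was 0.078. Of the 7242, 64 genes (0.884%) exceeded 0.3. Myh4 ranked 2nd of these with 0.942. First was Cish, a feedback inhibitor of cytokine signalling through STAT5, with 0.978; it ran from 1.87 CPM in replicate 6 through 11.0 to 61.2 in replicate 3.

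Of the 10 most variable genes, 2 are in the fat cell list, Plin1 and Cfd. Plin1, the coat protein of fat droplets, ran from 4.17 CPM in replicate 8 through 7.19 to 33.9 in replicate 2. Scd1, a fatty acid desaturase, ran from 72.1 CPM in replicate 3 through 271 to 900.4 in replicate 2. Cfd, and outside that list Cyp2e1 and Trf, were also highest in replicate 2, and replicates 1 and 10 followed it. All 10 fat cell genes were highest in replicate 2, which was highest for 6.49% of all genes. They summed to 332 CPM there, to 281 in replicate 1, to 243 in replicate 10 and to 100.3 in replicate 8. Angptl4, Chac1 and Actn3 completed the 10 most variable. The steadiest genes, Ncstn, Ap2b1, Wdr33, Chmp3 and Dhx36, serve proteolysis, membrane traffic and RNA processing. Ncstn, a subunit of gamma-secretase, stayed within 35.8 to 37.6 CPM.

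**Figure D5:**
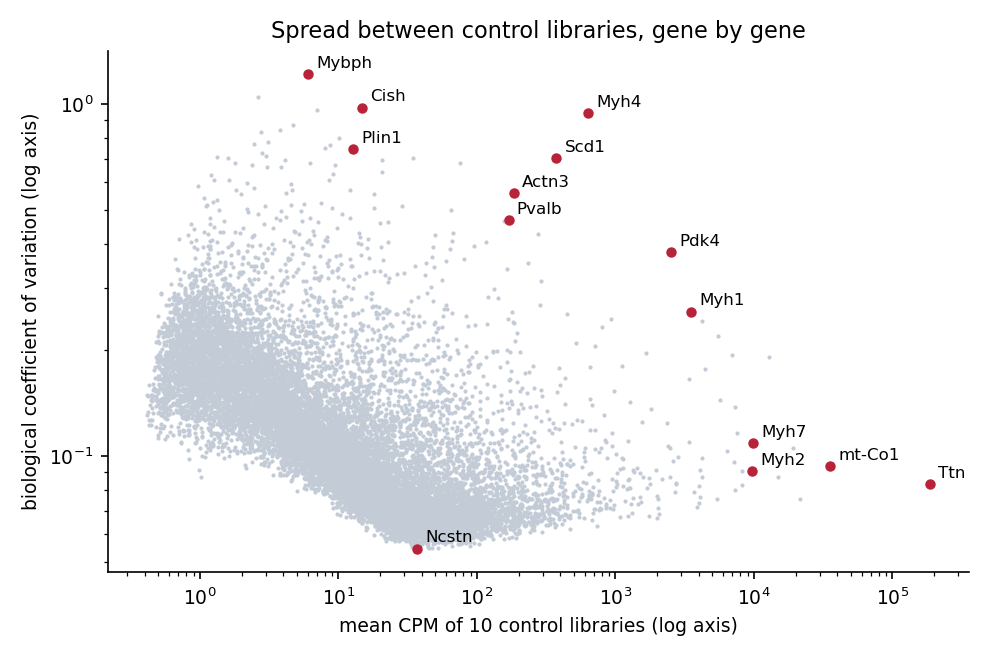
Biological coefficient of variation (vertical log axis) against mean CPM of 10 control libraries (horizontal log axis), 1 grey point per gene past the filter and red points for named genes. Myh4 lies at 0.942 with a mean of 631 CPM, far above genes of similar level, while Myh7, Myh2, mt-Co1 and Ttn lie near 0.1. Mybph, a myosin binding protein of low level, lies higher still, but its mean is under 10 CPM.

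The 2 long noncoding RNAs of the series title were read in the same way. Kcnq1ot1, the antisense transcript of an imprinted region, ran from 121 CPM in replicate 5 through 165 to 187 in replicate 10. Its rho with Myh4 was 0.38 (exact p = 0.279, adjusted p = 0.934) and turned to -0.21 without replicates 5 and 8. Replicate 5 was well below the other 9 libraries. Lncpint, a noncoding target of p53, ran from 45.3 CPM in replicate 3 through 69.1 to 94.4 in replicate 10, with rho 0.25 (exact p = 0.492, adjusted p = 0.964). Without strand information reads of Kcnq1ot1 and of Kcnq1 cannot be told apart.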

How the data were processed

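Soleus RNA was depleted of ribosomal RNA, and libraries were made from 90 ng of total RNA, per the labels. The authors deposited raw read counts per Ensembl gene. The submitters' processing notes name MultiQC 1.15, Subread, featureCounts 1.5.1, edgeR and build GRCm39. The sources used here give neither the roles of these tools nor the strand setting, annotation release or treatment of reads with several matches.

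Gene names, classes and exon lengths came from GENCODE M21 on GRCm38, matched by Ensembl identifier without version: 52000 of 56941 rows, with 97.6% of counts, had a symbol. Counts were filtered with filterByExpr (minimum count 10, minimum total 15, 1 group), scaled by TMM and turned into log2 CPM with a prior count of 2, in R 4.3.3 with edgeR 4.0.16. Spearman's rho used its exact null for 10 libraries, and Pearson's r 100000 permutations, both 2-sided (numpy 2.4.6, scipy 1.17.1). Benjamini-Hochberg adjustment ran over all tested genes with a threshold of 0.05. DESeq2 1.42.0 and edgeR covariate fits were alternatives. Rank correlation and the edgeR fit were run on simulated counts with independent genes of equal spread, unlike these data. The Pearson permutations and the DESeq2 fit were not checked in this way.

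Named genes were the heavy chains, the 10 highest and 10 lowest rho among genes with a settled symbol averaging 5 CPM or more, up to 3 members of each list by absolute rho and by level, the most abundant, most variable and steadiest genes, and the lncRNAs of the title. Other members of lists and the genes called by DESeq2 were named after their values were seen. The libraries, gene lists and tests were chosen with earlier results of these data known. Beyond a group size of 10 mice the labels do not say how replicates arose, so each p-value reflects only how these samples vary, which may be technical. Values of some single genes are not reported here.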

Additional observations from a re-analysis of the deposited data

Results flagged for a closer look

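Of 232 values examined over the 10 libraries, 31 had 1 library apart from the other 9: the gap between the extreme library and its neighbour exceeded 0.466 of the whole range. For independent values with a normal distribution this cut-off flags about 1 in 20. Many values here were chosen by rho, level or spread and move together, so that rate is no yardstick for them. The figure after each name is that gap as a share of the range.

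Replicate 5 was apart for fast fibre genes. It was lowest in Actn3 (0.649), Myh1 (0.589), Aldoa (0.565), Pvalb (0.531) and Myh4 (0.515), in the median of the fast contractile list (0.51), and in Kcnq1ot1 (0.600). It was highest in Gtf3c4, a subunit of the RNA polymerase III factor TFIIIC (0.584).

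Replicate 9 was lowest in mitochondrially encoded RNA, with mt-Nd6 (0.705), mt-Nd5 (0.683), mt-Nd4 (0.66), mt-Cytb (0.655), mt-Nd2 (0.617), mt-Nd1 (0.57), mt-Rnr2 (0.524) and mt-Rnr1 (0.509). The median of the mitochondrial mRNAs (0.679) and the mitochondrial share (0.574) stood apart with them. Cox6a2, a nuclear subunit of cytochrome oxidase, was lowest there too (0.734), as was Adig (0.600), and Map1s was highest (0.493).

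Replicate 10 was highest in the myelin genes Mbp (0.711) and Pmp22 (0.676), and in the median of that list (0.723).

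Replicate 6 was highest in the tendon genes Comp (0.61) and Fmod (0.466), in the median of mast cell genes (0.489) and in the TMM factor (0.503). Single genes stood apart in 3 further libraries: Pdk4, which restrains pyruvate oxidation, was lowest in replicate 8 (0.543), Ddit4 was lowest in replicate 3 (0.527), and Esam was highest in replicate 1 (0.515).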

How the results depend on the processing

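With rank correlation, no alternative scaling, filter, prior count or omitted library gave a gene at an adjusted p under 0.05. The DESeq2 covariate fit gave 27 genes, and 2 to 91 with 1 library left out (2 without replicate 5). Genes above 0 at an unadjusted p numbered 628 in edgeR and 678 in edgeR with the mitochondrial share as a second covariate. By rank correlation they numbered 421, and 273 to 525 with 1 library left out (273 without replicate 5). Genes below 0 numbered 162 with library size alone and 285 to 564 with 1 library left out. The cause of these moves was not tested.

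Without replicates 5 and 8 the rho with Myh4 changed sign for Myh7 (0.14), Kcnq1ot1 (-0.21), Tpm3 (0.095), Myl2 (0.071), Tnnt1 (0.21) and Atp2a2 (0.024). Over all 198 named genes with a rho, 46 changed sign without these libraries, none with an absolute rho above 0.48 in full. Without 1 library the pair of Myh2 and Myh7 ran from -0.47 to 0.13 (positive without replicate 1). Without the same 2 libraries rho with Myh4 also changed sign for the median level of fat cells (-0.095), endothelium (-0.45), smooth muscle (-0.64), red blood cells (-0.29), satellite cells (0.095) and mast cells (0.071).

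With mitochondrially encoded genes left out of the total, Ttn held 20.3% of counts, the sarcomere frame 28.8%, slow contractile genes 2.82%, oxidative phosphorylation 1.64% and glycolysis 1.58%. The common coefficient of variation stayed between 0.114 and 0.122. No paired analysis was possible because all 10 libraries belong to 1 group and no groups were compared. With 10 libraries the unadjusted exact p of Spearman's rho cannot fall below 5.51e-07.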

Other observations

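Other gene lists had many of their extremes in single muscles. Of 48 ribosomal protein genes past the filter, 31 were lowest in replicate 3, which was lowest for 9.59% of all genes, and their sum was 4560 CPM there against up to 5243 in replicate 5. Of 22 growth and atrophy regulators, 10 were lowest in replicate 3, among them Ddit4 (4.82 CPM, median 13.4). Of 25 heat shock and chaperone genes, 12 were lowest in replicate 6, against 10.9% of all genes. In replicate 4, 9 were highest, against 12.3% of all genes. Cryab, a small heat shock protein of muscle, ran from 999.6 CPM in replicate 6 through 1243 to 1649 in replicate 9, and its rho with Myh7 was 0.81 beside 0.0061 with Myh4.

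Many connective tissue and immune cell genes were highest in replicate 6. There 9 of 10 tendon, 8 of 11 fibroblast, 7 of 10 macrophage and 4 of 4 mast cell genes had their maximum, against 12.5% of all genes. Col1a1, the main fibrillar collagen, stood at 624 CPM in replicate 6 and at 158 to 363 CPM elsewhere. Mstn, the growth inhibitor myostatin, was low in every library, from 0.455 CPM in replicate 5 to 3.37 in replicate 9, with rho 0.71 with Myh4 (exact p = 0.0268, adjusted p = 0.837).

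Embryonic myosin Myh3 was measurable, from 18.9 CPM in replicate 3 to 51.6 in replicate 4. Among clock genes, Nr1d1, a repressor whose level follows the time of day, ran from 101.6 CPM in replicate 10 to 238 in replicate 5. The labels give no time of collection.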
